A study of Mus musculus with 15 samples.

Results

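The 41 genes described here mark microglia, the resident macrophages of brain tissue, and the states that these cells can take. They were taken by gene symbol from the 35142 genes to which the transcripts were summed, with earlier results of these data known, and fall into 5 classes. The classes are core macrophage lineage (15 genes), homeostatic microglia (10 genes), disease-associated microglia (7 genes), Fc and phagocytic receptors (4 genes) and border macrophages (5 genes). All 41 were listed in the data. *Fcrls* was found under the symbol *Fcrl2*, because its RefSeq promoter lies within that locus on chromosome 3.

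Bulk RNA-seq was performed on 15 cultures of cerebellar cells from wild-type C57BL/6 pups at postnatal days 0 to 4. Of these, 5 were left unstimulated, 5 were given IL-12p70 (recombinant, murine) at 30 ng/ml and 5 at 100 ng/ml, for 18 h from day 14 in vitro, and the question was how cells of this kind respond to the cytokine. All cultures were dissociated cerebellum kept in Neurobasal Plus medium with B27 Plus, and no cells were sorted before lysis. The labels do not say whether the 5 replicates of a group came from separate dissections, so the p-values measure the spread between these cultures, which may be technical in part.

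The submitters label the cell type as neurons. The transcripts came from several cell types. The summed level of 15 cerebellar neuron markers was 292.9 to 408.2 TPM (a level corrected for transcript length and library size) over the 15 cultures. The summed level of the 15 core macrophage lineage genes was 3856 to 6490 TPM, that of 12 oligodendrocyte-lineage markers was 5940 to 9858 TPM and that of 11 astrocyte markers was 3839 to 5308 TPM. The core lineage sum was therefore above the neuron sum in every culture. Markers of blood leukocytes were nearly absent: all 8 T and NK cell markers had a mean under 1 TPM, as did 7 of 8 neutrophil and monocyte markers, *Ly6c2*, *Ccr2* and *S100a9* among them. Each library held 25746096 to 38435850 estimated reads over all transcripts, of which 0.677% to 0.712% were in transcripts matched to no gene. Each of the 39 genes tested below had at least 59 reads in every culture.

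Microglia depend on signaling through the receptor CSF1R and on the transcription factor PU.1, which the gene *Spi1* encodes. Homeostatic microglia are known for purinergic receptors such as P2RY12, for TMEM119 and for a program maintained by TGF-β, and they lower these transcripts when they are activated or removed from the brain. Disease-associated microglia, which surround amyloid plaques and damaged myelin, acquire lipid-handling and phagocytic genes such as *Lpl*, *Gpnmb* and *Spp1*, partly through the receptor TREM2 and its adaptor TYROBP. Border macrophages of the meninges, perivascular spaces and choroid plexus are a separate population known for *Mrc1*, *Cd163*, *Pf4* and *Ms4a7*.

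In the unstimulated cultures the disease-associated class held the most abundant member. *Spp1*, which encodes the secreted phosphoprotein osteopontin, was at 6625 ± 882 TPM (SD, n = 5), above *Lyz2* at 1728 ± 378 TPM and *Tyrobp* at 1420 ± 206 TPM. *Lyz2*, which encodes lysozyme, and *Tyrobp* did not differ beyond their spread in this order. *Cd68*, a lysosomal glycoprotein of macrophages, followed at 867 ± 107 TPM, and *Gpnmb* at 788 ± 111 TPM, *Fcrls* at 752 ± 92.9 TPM and *Fcer1g* at 739 TPM were neighbors within their spread. Which cells of these mixed cultures gave the reads of *Spp1* was not tested, so its level does not by itself describe a state of microglia.

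The homeostatic genes covered a wide range of levels. *Fcrls*, an Fc receptor-like gene of mouse microglia, was far above the rest of its class. *Olfml3* (91.0 ± 5.87 TPM), *Tmem119* (66.6 ± 11.8 TPM), *Hpgds* and *Gpr34* (61.0 ± 7.18 TPM) formed a middle group. *P2ry12* at 27.3 ± 3.83 TPM and *P2ry13* at 23.5 TPM were lower, and *Sall1*, a transcription factor of microglial identity, was at 9.50 TPM. *Siglech* and *Cd163* were close to 0, with 0 to 8 reads in each culture. In the unstimulated group *Siglech* had a mean of 0.0744 TPM and *Cd163* of 0.0365 TPM, and neither passed the filter for testing. *Cd163*, a scavenger receptor for hemoglobin, is a defining border macrophage marker, and *Mrc1*, another one, was at 32.0 ± 10.9 TPM. Others of this class were not low, with *Pf4* at 164 ± 32.9 TPM and *Ms4a7* at 139 ± 21.4 TPM. Of 15 other border macrophage genes, *F13a1*, *Lyve1*, *Clec10a* and *Cd209f* had means under 1 TPM over all cultures, and the rest did not. These 15 genes summed to 624.9 to 896.7 TPM in the unstimulated cultures.

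**Figure D1:**
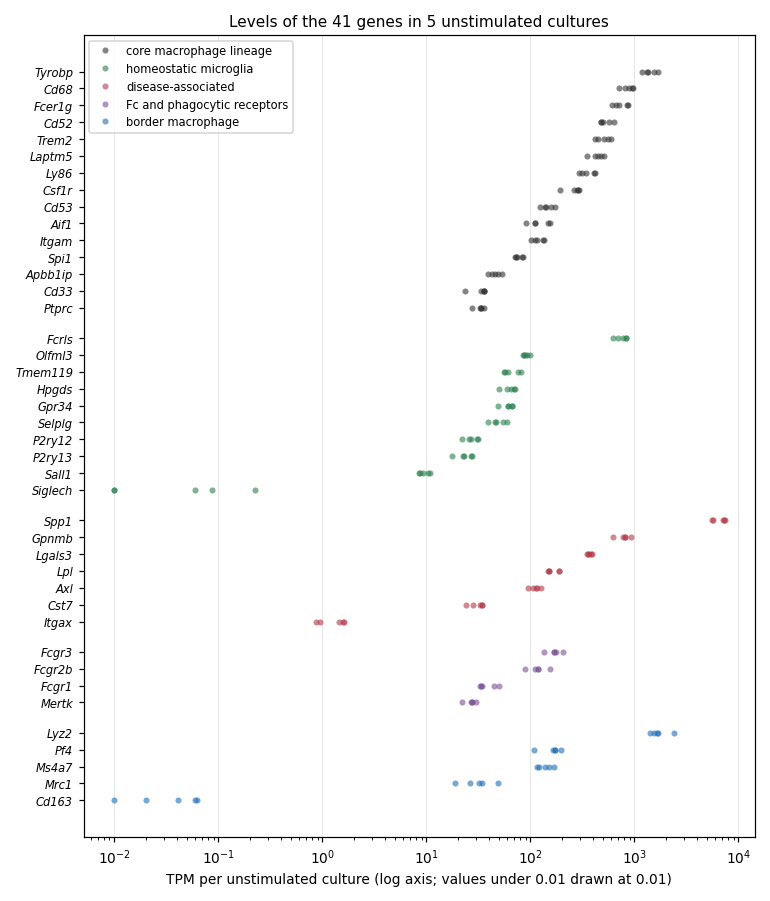
TPM of each of the 41 genes in the 5 unstimulated cultures on a log axis, grouped by class; each point is 1 culture. *Spp1* lies highest at 5586 to 7364 TPM, and *Siglech* and *Cd163* lie below 1 TPM in all 5.

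The sum of the core lineage genes differed between cultures of the same group. In the unstimulated cultures it was 5248, 4698, 6435, 6490 and 5641 TPM for replicates 1 to 5. In the cultures with 30 ng/ml it was 3856, 4600, 4744, 4663 and 3928 TPM. In those with 100 ng/ml it was 5153, 4974, 4583, 5810 and 5206 TPM. The highest culture at 30 ng/ml lay just above the lowest unstimulated one, so these groups overlapped, and the groups at 30 and 100 ng/ml overlapped as well. In bulk RNA a smaller number of microglia and less RNA of these genes per microglial cell cannot be told apart.

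The other classes had their own order of groups. The sum of the homeostatic genes, mostly *Fcrls*, was 945.9 to 1280 TPM in unstimulated cultures, 731.0 to 932.3 TPM at 30 ng/ml, with no overlap, and 808.3 to 1038 TPM at 100 ng/ml. *Fcrls* alone had means of 752 and 520 TPM unstimulated and at 30 ng/ml, within mean sums of 1143 and 850 TPM. The disease-associated genes, mostly *Spp1*, summed to 6861 to 8847 TPM, 6358 to 8494 TPM and 6737 to 8428 TPM. Those 3 ranges largely coincided. The border macrophage genes, mostly *Lyz2*, summed to 1732 to 2792 TPM unstimulated and 1650 to 1973 TPM at 30 ng/ml. At 100 ng/ml they summed to 2212 to 2677 TPM, above every culture at 30 ng/ml and above 4 of the 5 unstimulated cultures. Fc and phagocytic receptors summed to 280.8 to 435.0 TPM, 240.5 to 318.6 TPM and 260.5 to 334.8 TPM in the same order of groups.

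**Figure D2:**
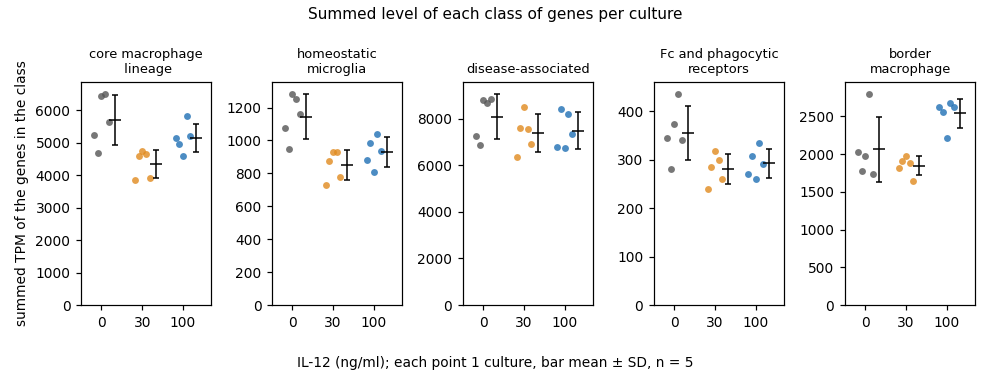
Summed TPM of the genes of each class against the concentration of IL-12 (0, 30 and 100 ng/ml); each point is 1 culture and the bars give mean ± SD (n = 5). The core sum has means of 5702, 4358 and 5145 TPM and the border macrophage sum of 2063, 1846 and 2540 TPM.

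With 30 ng/ml IL-12, 18 of the 39 genes tested fell and 1, *Axl*, rose. Of the 18 that fell, *Gpr34*, *Pf4*, *Ly86*, *Selplg* and *Fcrls* had log2 fold changes of -0.58 to -0.76 and the other 13 smaller ones. A gene was called at a false discovery rate (FDR) under 0.05 in edgeR's quasi-likelihood test, adjusted over all 15360 genes tested. Of all genes, 3.71% were called lower and 4.16% higher in this comparison. The median log2 fold change of the 39 genes was -0.35, beside 0 for all genes, and 36 of the 39 had a value below 0, beside 49.93% of all genes. The counts scaled to library size (CPM) of 10 genes did not overlap between the groups, all of them lower at 30 ng/ml, beside 3.46% of all genes lower and 5.44% higher without overlap. These 10 were *Trem2*, *Ly86*, *Cd68*, *Cd52*, *Apbb1ip*, *Gpr34*, *Fcrls*, *Selplg*, *Mertk* and *Lpl*. In place of 19 genes, 11 were called when unstimulated replicate 3 was left out. The stimulated group mattered too, with 11 called when its replicate 1 was omitted and 12 when its replicate 5 was.

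With 100 ng/ml, 5 genes fell and 3 rose. *Ly86*, *Gpr34*, *Fcrls*, *Selplg* and *Pf4* fell, and these 5 were called lower at both concentrations, against the same unstimulated cultures. *Axl*, *Ms4a7* and *Lyz2* rose. Of all genes, 3.93% were called lower and 5.83% higher. The median of the 39 genes was -0.15, beside -0.004 for all genes, with 29 below 0 (51.35% of all genes). The CPM of 1 gene, *Axl*, did not overlap between the groups (4.34% of all genes were higher without overlap), and 0 genes were lower without overlap (2.84% of all genes). By an unadjusted p under 0.05, 16 of the 39 genes passed at 100 ng/ml and 28 at 30 ng/ml. Without unstimulated replicate 3, 5 genes were called at 100 ng/ml.

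Of the genes called at 30 ng/ml, 13 were not called at 100 ng/ml, and the concentrations were therefore compared directly. Between 100 and 30 ng/ml, 3 genes were called, *Cd52*, *Ms4a7* and *Lyz2*, all higher at 100 ng/ml, and 0 were called lower (14 had an unadjusted p under 0.05, and DESeq2 called 5 genes). Leaving out replicate 1, 4 or 5 at 100 ng/ml or replicate 1 or 2 at 30 ng/ml left 1 gene called, and leaving out replicate 5 at 30 ng/ml left 0. Of all genes, 0.501% were called higher and 0.0781% lower. For 35 of the 39 genes the value was higher at 100 than at 30 ng/ml (48.48% of all genes), with a median log2 difference of 0.18 beside -0.004 for all genes. The CPM of 6 genes did not overlap, *Aif1*, *Csf1r*, *Spi1*, *Cd52*, *Ms4a7* and *Lyz2*, all of them higher at 100 ng/ml (1.74% of all genes, with 1.23% lower). When the 2 concentrations were averaged and set against the unstimulated cultures, 14 genes fell and 1 rose, with 5.22% and 6.71% of all genes called in those directions.

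**Figure D3:**
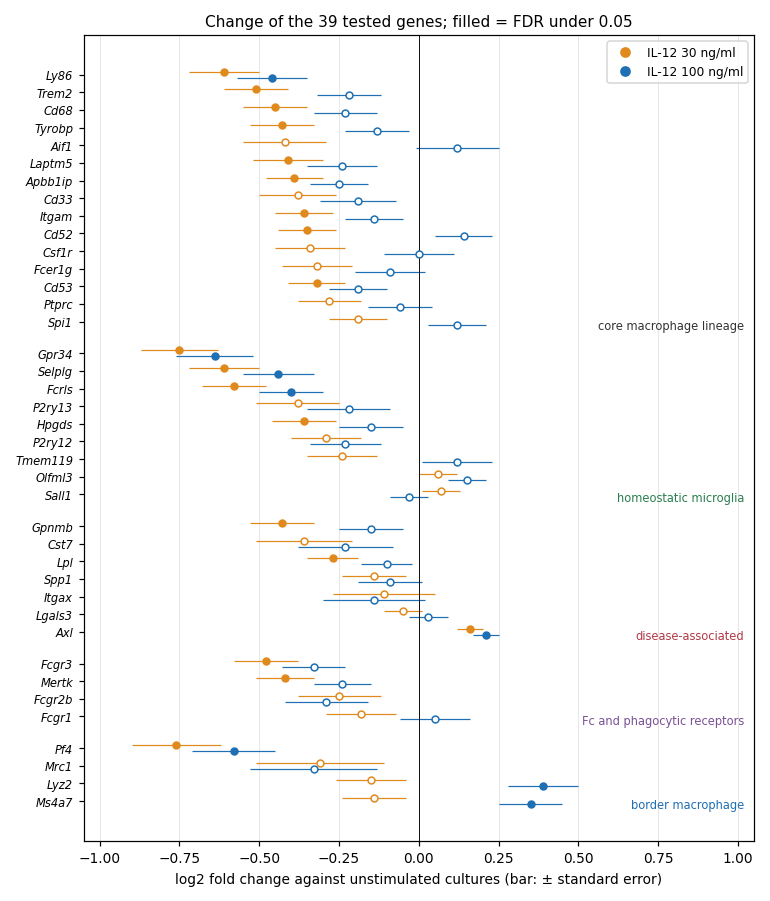
Log2 fold change of each of the 39 tested genes with its standard error, for 30 ng/ml and 100 ng/ml against unstimulated, grouped by class; filled symbols mark an FDR under 0.05. At 30 ng/ml 36 of the 39 lie below 0, and at 100 ng/ml *Ms4a7* and *Lyz2* lie at 0.35 and 0.39 while *Gpr34* and *Pf4* lie at -0.64 and -0.58.

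In the core macrophage lineage class, 9 of the 15 genes fell at 30 ng/ml and all 15 had values below 0, with a median of -0.38. At 100 ng/ml 1 of the 15, *Ly86*, fell, and the median was -0.14. *Tyrobp* (chr7:30113170-30117010, GRCm39) encodes the immunoreceptor adaptor through which TREM2 signals. Its level in replicates 1 to 5 was 1308, 1175, 1557, 1694 and 1365 TPM in unstimulated cultures, 956, 1090, 1186, 1162 and 958 TPM at 30 ng/ml, and 1368, 1172, 1184, 1445 and 1297 TPM at 100 ng/ml. The lowest unstimulated culture lay below the highest at 30 ng/ml, and the other 4 lay above that group. *Tyrobp* fell at 30 ng/ml by 0.43 on the log2 scale (SE 0.10, FDR 0.0168), and at 100 ng/ml the value was -0.13 (FDR 0.475).

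*Trem2* (chr17:48653429-48661175) encodes the lipid-sensing receptor of the disease-associated transition. It was at 444, 418, 554, 600 and 512 TPM unstimulated, at 314, 370, 390, 395 and 341 TPM at 30 ng/ml, and at 449, 411, 386, 497 and 431 TPM at 100 ng/ml. Every culture at 30 ng/ml was below every unstimulated one, whereas at 100 ng/ml the ranges overlapped. The log2 fold change was -0.51 (SE 0.10, FDR 0.00638) at 30 ng/ml and -0.22 (FDR 0.192) at 100 ng/ml, and the value at 100 ng/ml relative to 30 ng/ml, 0.29, was not called (FDR 0.25).

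*Ly86* (chr13:37529184-37603012) encodes MD-1, the partner of the Toll-like receptor homolog RP105. It was at 312, 296, 422, 406 and 344 TPM unstimulated, at 208, 240, 263, 259 and 213 TPM at 30 ng/ml, and at 251, 264, 215, 296 and 257 TPM at 100 ng/ml. All cultures at 30 ng/ml were below the unstimulated range, and at 100 ng/ml the highest culture was level with the lowest unstimulated one. It fell by 0.61 (SE 0.11, FDR 0.00316) and by 0.46 (SE 0.11, FDR 0.0152) on the log2 scale, respectively.

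*Cd52*, which encodes a small surface glycoprotein of leukocytes, was lowest at 30 ng/ml. Its values were 474, 472, 640, 572 and 498 TPM unstimulated, 398, 438, 458, 430 and 404 TPM at 30 ng/ml, and 616, 616, 532, 613 and 530 TPM at 100 ng/ml. The group at 30 ng/ml lay below both others without overlap. *Cd52* fell by 0.35 (SE 0.09, FDR 0.0228) at 30 ng/ml and was higher by 0.49 (SE 0.09, FDR 0.0137) at 100 than at 30 ng/ml. Against unstimulated, the value at 100 ng/ml was 0.14 (FDR 0.338).

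The other core genes that fell at 30 ng/ml were *Cd68* (867 ± 107 to 649 ± 69.7 TPM, FDR 0.0093), *Apbb1ip* (FDR 0.0157), *Itgam* (FDR 0.0216), *Laptm5* (FDR 0.0266) and *Cd53* (FDR 0.0484). Of the 15 fits that left out 1 culture, the call held in 5 for *Cd53* (FDR up to 0.133, without unstimulated replicate 4), in 10 for *Laptm5* and 11 for *Itgam* (up to 0.0828 and 0.0674, both without unstimulated replicate 3), in 14 for *Apbb1ip* and in 15 for *Cd68*. Those of *Tyrobp* and *Cd52* at 30 ng/ml held in 12 and 11. *Itgam* encodes the integrin CD11b, and *Laptm5* a lysosomal membrane protein of hematopoietic cells. *Aif1*, which encodes IBA1, went from 123 ± 26.8 to 92.6 ± 8.68 TPM and missed the threshold (FDR 0.0583), as did the receptor gene *Csf1r* (264 to 209 TPM, FDR 0.055). *Spi1* was at 77.3, 66.5 and 85.4 TPM in the 3 groups and was called in none of the 4 comparisons, and neither were *Fcer1g*, *Ptprc* and *Cd33*. A protein-coding gene model, *Gm49368*, overlaps *Itgam* on the same strand, and reads from the shared part may have been divided between them.

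Since PU.1 binds purine-rich sites around a GGAA core, the 250 bases before each RefSeq start site were searched for GAGGAAG and AGGAAGT on both strands. These motifs overlap each other in AGGAAG. RefSeq (build GRCm38.p6) held 39 promoters of 33 of the 41 genes, and of these 39, 21 (53.8%) held at least 1 of the motifs, beside 15.4% of all 32851 promoters. GAGGAAG was found in 35.9% of the member promoters (10.6% of all) and AGGAAGT in 33.3% (7.69% of all). *Trem2*, *Itgam* and *Gpnmb*, which fell at 30 ng/ml, and *Ms4a7*, which rose at 100 ng/ml, are shown as examples. At least 224 of the 250 bases of their windows lie outside annotated exons. Each sequence is written 5′ to 3′ on the strand of the gene, up to the first annotated exon base, with a motif on either strand in capitals. They lie in GRCm39 at chr17:48653179-48653428 (plus strand, *Trem2*), chr7:127661562-127661807 (plus, *Itgam*), chr6:49013202-49013425 (plus, *Gpnmb*) and chr19:11313511-11313760 (minus, *Ms4a7*).
Trem2: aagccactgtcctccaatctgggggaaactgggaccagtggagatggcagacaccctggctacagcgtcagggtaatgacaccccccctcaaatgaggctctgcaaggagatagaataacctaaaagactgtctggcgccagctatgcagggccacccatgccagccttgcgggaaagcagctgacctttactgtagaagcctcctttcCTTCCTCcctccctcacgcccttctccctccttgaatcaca
Itgam: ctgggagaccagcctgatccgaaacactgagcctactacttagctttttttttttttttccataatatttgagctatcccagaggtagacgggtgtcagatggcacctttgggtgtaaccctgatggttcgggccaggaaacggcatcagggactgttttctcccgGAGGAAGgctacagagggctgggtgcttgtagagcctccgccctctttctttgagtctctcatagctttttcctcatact
Gpnmb: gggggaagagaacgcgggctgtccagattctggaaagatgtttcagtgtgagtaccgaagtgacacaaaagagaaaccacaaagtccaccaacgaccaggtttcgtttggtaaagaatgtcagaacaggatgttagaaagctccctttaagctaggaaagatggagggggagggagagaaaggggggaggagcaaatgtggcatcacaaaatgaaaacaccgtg
Ms4a7: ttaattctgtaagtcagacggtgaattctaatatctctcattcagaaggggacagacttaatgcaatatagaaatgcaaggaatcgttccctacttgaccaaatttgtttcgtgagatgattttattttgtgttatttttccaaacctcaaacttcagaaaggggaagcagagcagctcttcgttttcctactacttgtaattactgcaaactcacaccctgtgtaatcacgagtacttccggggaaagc
The *Trem2* stretch held 1 motif, which starts 41 bases before the start site and reads on the minus strand. The *Itgam* stretch held 1 on the plus strand, 84 bases before the start site. The *Gpnmb* and *Ms4a7* stretches held 0. A match describes the letters of these windows and not the binding of a factor.

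Among the homeostatic genes, 3 of the 9 tested fell at both concentrations, namely *Gpr34*, *Fcrls* and *Selplg*, and *Hpgds* fell at 30 ng/ml. The *Hpgds* call held in 8 of the 15 fits that left out 1 culture (FDR up to 0.108, without unstimulated replicate 3). Those of *Fcrls* and *Selplg* at 100 ng/ml held in 11 and 13 (up to 0.0632 and 0.0622, both without replicate 3 at 100 ng/ml). The class had medians of -0.36 (30 ng/ml) and -0.22 (100 ng/ml). *Gpr34* (chrX:13489625-13507116), a G protein-coupled receptor for lysophosphatidylserine, was among those with the lowest FDR at both concentrations. Its level was 61.5, 49.4, 66.7, 67.1 and 60.4 TPM unstimulated, 32.2, 38.3, 41.5, 40.8 and 32.6 TPM at 30 ng/ml, and 33.4, 43.4, 30.1, 48.7 and 36.2 TPM at 100 ng/ml. In TPM, both stimulated groups lay below the unstimulated one. In CPM the groups at 100 ng/ml and unstimulated overlapped. *Gpr34* fell by 0.75 (SE 0.12, FDR 0.00146) at 30 ng/ml and by 0.64 (SE 0.12, FDR 0.00328) at 100 ng/ml.

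*Fcrls* (chr3:87156616-87181827) was at 702, 616, 835, 829 and 777 TPM unstimulated, at 433, 538, 572, 582 and 474 TPM at 30 ng/ml, and at 530, 627, 489, 639 and 568 TPM at 100 ng/ml. The groups at 30 ng/ml and unstimulated did not overlap, and at 100 ng/ml 2 cultures reached the unstimulated range. The log2 fold changes were -0.58 (SE 0.10, FDR 0.00274) and -0.40 (SE 0.10, FDR 0.0216). *Selplg*, which encodes the P-selectin ligand PSGL-1, had means of 49.2 ± 7.88, 33 ± 3.13 and 36.4 ± 4.43 TPM (SD, n = 5), and fell by 0.61 (FDR 0.00394) and by 0.44 (FDR 0.0216) on the log2 scale.

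The genes most widely used to name homeostatic microglia were not among those called. *P2ry12*, an ADP receptor, had means of 27.3 ± 3.83, 23.2 ± 2.06 and 23.8 ± 3.49 TPM, with log2 fold changes of -0.29 (FDR 0.13) at 30 ng/ml and -0.23 (FDR 0.211) at 100 ng/ml. *P2ry13*, a related receptor, had -0.38 (FDR 0.0872) and -0.22. *Tmem119*, a surface protein marker, was at 66.6 ± 11.8, 57.9 ± 5.37 and 72.2 ± 6.53 TPM, with values on either side of 0 (-0.24, FDR 0.221, and 0.12, FDR 0.543). *Olfml3*, a secreted matrix protein, was at 91.0 ± 5.87, 96.9 ± 5.92 and 99.7 ± 6.77 TPM and was not called. *Sall1* was at 9.50, 10.1 and 9.20 TPM and was not called. The coefficient of variation within groups was 7.8% for *Olfml3* and 7.1% for *Sall1*, beside a median of 12.99% over the 39 genes. Which cells of these mixed cultures gave the reads of *Olfml3* and *Sall1* was not tested. Reads of *P2ry12*, *P2ry13* and *Gpr34* can come from the opposite strand, since the first pair lies within *Med12l* and *Gpr34* within *Cask*. The same holds for *Cd52* and *Csf1r* of the core class, which overlap *Crybg2* and *Hmgxb3* on the opposite strand. The study's methods name a stranded library kit, but the use of strand in the counting was not given in the sources used here.

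The disease-associated genes split into those that fell at 30 ng/ml (*Gpnmb*, *Lpl*), *Axl*, which rose, and 4 genes that were not called. *Spp1* (chr5:104582165-104589235) was at 5748, 5586, 7364, 7103 and 7324 TPM unstimulated, at 5173, 6354, 7159, 6228 and 5772 TPM at 30 ng/ml, and at 5435, 7080, 5462, 6688 and 5954 TPM at 100 ng/ml. The 3 groups overlapped. Its log2 fold changes were -0.14 (FDR 0.463) and -0.09 (FDR 0.63), with 123146 to 171796 reads in each culture.

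*Gpnmb* (chr6:49013426-49047863), a lysosomal transmembrane glycoprotein, was at 812, 620, 777, 929 and 804 TPM unstimulated, at 546, 615, 679, 620 and 515 TPM at 30 ng/ml, and at 652, 680, 611, 795 and 729 TPM at 100 ng/ml. Unstimulated replicate 2 fell into the range of the group at 30 ng/ml and the other 4 did not. *Gpnmb* fell by 0.43 (SE 0.10, FDR 0.0125) at 30 ng/ml, and the value at 100 ng/ml was -0.15 (FDR 0.379). *Lpl*, lipoprotein lipase, went from 166 ± 21.0 to 142 ± 6.74 TPM at 30 ng/ml (log2 fold change -0.27, FDR 0.0342), a call that held in 9 of the 15 fits that left out 1 culture.

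*Axl* (chr7:25456535-25488329), a receptor tyrosine kinase that recognizes phosphatidylserine through GAS6, went the other way. It was at 116, 95.5, 114, 105 and 125 TPM unstimulated, at 128, 132, 123, 125 and 123 TPM at 30 ng/ml, and at 113, 129, 127, 126 and 113 TPM at 100 ng/ml. The ranges overlapped in TPM, and in CPM those at 100 ng/ml and unstimulated did not. It rose by 0.16 (SE 0.04, FDR 0.037) at 30 ng/ml and by 0.21 (SE 0.04, FDR 0.00671) at 100 ng/ml. The call at 100 ng/ml held in all 15 fits that left out 1 culture, and that at 30 ng/ml in 8 of 15. *Axl* is also transcribed by astrocytes and other non-immune cells. In the same cultures the summed astrocyte markers were at 3839 to 4298 TPM unstimulated, 4550 to 5308 TPM at 30 ng/ml and 4262 to 4718 TPM at 100 ng/ml, with 4 of 11 called higher at 30 ng/ml and 2 called higher and 1 lower at 100 ng/ml, and *Gjb6* below 1 TPM in the unstimulated group. The part of astrocytes in the *Axl* values was not tested. *Lgals3* (galectin-3), *Cst7* (cystatin F) and *Itgax* (CD11c) were called in no comparison, and *Itgax* was low, with 59 to 122 reads in each culture.

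Among the 4 Fc and phagocytic receptors, *Mertk* and *Fcgr3* fell at 30 ng/ml, and at 100 ng/ml the 4 had an FDR of 0.0534 or more (medians -0.34 and -0.27). *Mertk* (chr2:128540729-128645080), the receptor tyrosine kinase by which phagocytes clear apoptotic cells, was at 27.0, 22.1, 27.7, 30.0 and 27.2 TPM unstimulated, at 18.0, 22.3, 20.8, 21.6 and 19.2 TPM at 30 ng/ml, and at 19.8, 25.7, 19.5, 24.1 and 22.7 TPM at 100 ng/ml. Apart from unstimulated replicate 2, each unstimulated culture was above all those at both concentrations. It fell by 0.42 (SE 0.09, FDR 0.00743) at 30 ng/ml, and the value at 100 ng/ml was -0.24 (FDR 0.0885).

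*Fcgr3* (chr1:170878738-170893549), an activating receptor for IgG, was at 169, 136, 178, 204 and 169 TPM unstimulated, at 105, 128, 140, 138 and 117 TPM at 30 ng/ml, and at 125, 135, 123, 158 and 133 TPM at 100 ng/ml. Again unstimulated replicate 2 alone reached into the stimulated ranges. The log2 fold changes were -0.48 (SE 0.10, FDR 0.01) and -0.33 (FDR 0.0534). *Fcgr1*, the high-affinity IgG receptor, was at 39.1, 35.8 and 41.2 TPM and *Fcgr2b*, the inhibitory one, at 118, 99.3 and 94.7 TPM, and neither was called. *Fcgr3* and *Fcgr2b* are similar in sequence, so their reads may have been shared out between them.

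The border macrophage genes did not move together. At 100 ng/ml *Ms4a7* and *Lyz2* rose and *Pf4* fell, and *Mrc1* was not called (-0.33, FDR 0.319). *Ms4a7* (chr19:11298403-11313510), a membrane-spanning protein of border macrophages that microglia also express under inflammation, was at 138, 116, 151, 169 and 122 TPM unstimulated, at 120, 131, 145, 134 and 119 TPM at 30 ng/ml, and at 189, 184, 143, 191 and 176 TPM at 100 ng/ml. At 100 ng/ml 4 of 5 cultures were above all others, and replicate 3 was not. *Ms4a7* rose by 0.35 (SE 0.10, FDR 0.0339) against unstimulated and by 0.49 (SE 0.10, FDR 0.0294) against 30 ng/ml, whereas at 30 ng/ml the value was -0.14 (FDR 0.463).

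*Lyz2* (chr10:117111557-117118346) was at 1687, 1535, 1633, 2377 and 1407 TPM unstimulated, at 1596, 1643, 1691, 1609 and 1424 TPM at 30 ng/ml, and at 2322, 2257, 1953, 2328 and 2317 TPM at 100 ng/ml. The groups at 100 and 30 ng/ml did not overlap, while unstimulated replicate 4 was above every stimulated culture. *Lyz2* rose by 0.39 (SE 0.11, FDR 0.039) against unstimulated and by 0.54 (SE 0.11, FDR 0.0353) against 30 ng/ml. The calls of *Ms4a7* and *Lyz2* were near the threshold. When each of the 15 cultures was left out in turn, *Lyz2* passed against unstimulated in 8 of 15 fits and against 30 ng/ml in 7 of 15, and *Ms4a7* in 9 of 15 in both. The largest FDR values were 0.101 for *Lyz2* against unstimulated, without unstimulated replicate 5, and 0.12 against 30 ng/ml, without replicate 5 of that group.

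*Pf4* (chr5:90918479-90922110), platelet factor 4, a chemokine that border macrophages also transcribe, was at 173, 109, 167, 198 and 171 TPM unstimulated, at 81.0, 102, 104, 112 and 88.0 TPM at 30 ng/ml, and at 94.8, 87.1, 93.7, 130 and 106 TPM at 100 ng/ml. Unstimulated replicate 2 lay within the stimulated ranges and the other 4 lay above them. It fell by 0.76 (SE 0.14, FDR 0.00269) at 30 ng/ml and by 0.58 (SE 0.13, FDR 0.0116) at 100 ng/ml, and with 491 to 1281 reads in each culture it kept both calls in all 15 fits without 1 culture.

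**Figure D4:**
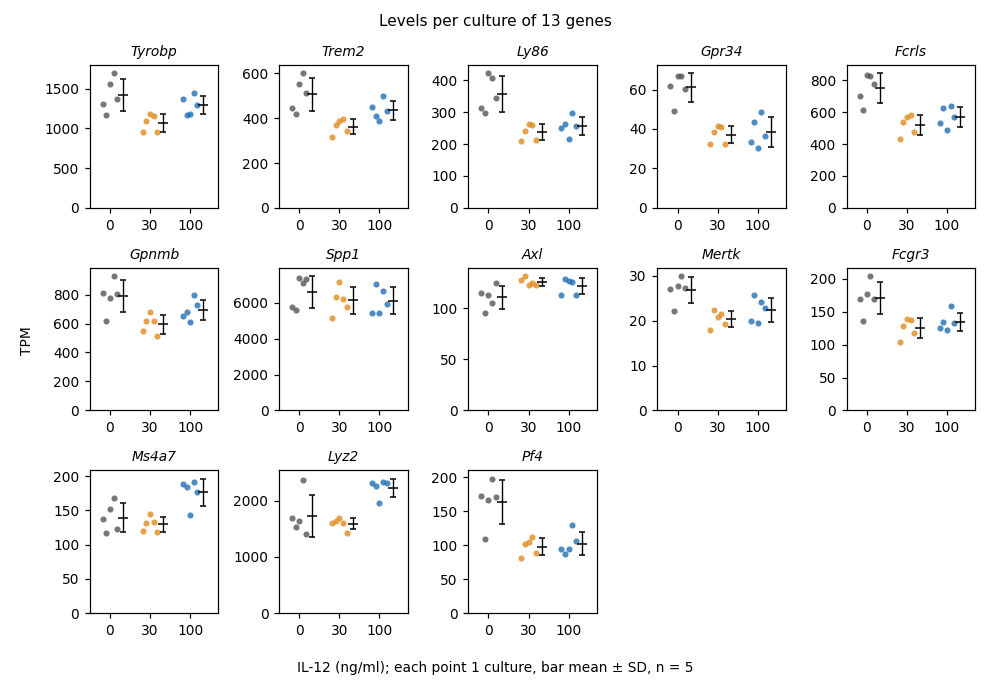
TPM of 13 of the genes in each culture against the concentration of IL-12 (0, 30 and 100 ng/ml); each point is 1 culture and bars are mean ± SD (n = 5). *Gpr34* and *Pf4* have lower means at both concentrations, *Trem2* is lowest at 30 ng/ml, *Lyz2* and *Ms4a7* are highest at 100 ng/ml, and *Spp1* overlaps in all groups.

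To compare single genes with the core lineage genes, the counts were also scaled to the summed counts of these 15 genes. The core genes changed themselves, so this sum does not measure the number of microglia. Of the 15, 9 were called lower at 30 ng/ml, and at 100 ng/ml their log2 fold changes ran from -0.46 to 0.14. The scale therefore cannot separate a change of single genes from one of the lineage as a whole. On this scale all genes had a median log2 fold change of 0.136 (100 ng/ml) and of 0.395 (30 ng/ml), and a value of 0 means that a gene moved with the summed core genes. *Gpr34* fell relative to the core sum at 30 ng/ml (-0.35, SE 0.10, FDR 0.00765) and at 100 ng/ml (-0.49, SE 0.10, FDR 0.0102), and *Pf4* did as well (-0.36, FDR 0.0071, and -0.42, FDR 0.0314). Of all genes, 0.234% and 0.202% were called lower on this scale at 30 and 100 ng/ml. In TPM, which is corrected for length, *Gpr34* was 1.03% to 1.17% of the core sum in unstimulated cultures, 0.831% to 0.875% at 30 ng/ml and 0.649% to 0.873% at 100 ng/ml. Neither stimulated range reached the unstimulated one.

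*Ms4a7* and *Lyz2* were the members called higher relative to the core sum at 100 ng/ml (0.51, SE 0.10, and 0.54, SE 0.11, both with FDR 0.00444), where 1.95% of all genes were. The TPM of *Ms4a7* was 2.17% to 2.63% of the summed core TPM unstimulated, 2.84% to 3.10% at 30 ng/ml and 3.12% to 3.71% at 100 ng/ml. The TPM of *Lyz2* was 24.95% to 36.6% of that sum, 34.5% to 41.4% and 40.1% to 45.4%. The shares of *Ms4a7* in TPM did not overlap between the 3 groups, but the core sum that divides them had a lower mean at 30 ng/ml. At 30 ng/ml the shares of *P2ry12*, *Hpgds*, *Olfml3*, *Axl* and *Spp1* also lay above the unstimulated range without overlap. Those of *Gpr34*, *Fcrls* and *Selplg* lay below it. The non-overlap at 30 ng/ml is therefore not particular to *Ms4a7*. At 30 ng/ml 8 members were called higher on this scale, where 74.2% of all genes were, so that count says little about them. *Fcrls* (-0.18, FDR 0.0516, and -0.24, FDR 0.12), *Selplg* (-0.20, FDR 0.0564, and -0.28, FDR 0.12), *Mertk* (-0.02 and -0.09), *Fcgr3* (-0.07 and -0.18) and *Gpnmb* (-0.03 and 0.01) were not called relative to the core sum at 30 and 100 ng/ml, respectively, and *P2ry12* was not either (0.12 and -0.07). In the mean of both concentrations, *Fcrls* (-0.21, FDR 0.0248) and *Selplg* (-0.24, FDR 0.0254) were called lower on this scale, as were 0.417% of all genes, with 41.9% called higher. *Axl* was not called at 100 ng/ml (0.36, FDR 0.0732) and was among the 8 called higher at 30 ng/ml (0.56, FDR 0.00146). Between 100 and 30 ng/ml, 0 members outside the core class were called on this scale by edgeR, with 5 of the 24 at an unadjusted p under 0.05, and of all genes 0.0326% were called higher and 0.00651% lower.

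Further microglial genes, from lists chosen from general knowledge with earlier results of these data known, were counted beside the 41. Of all genes, 4.16% were called higher and 3.71% lower at 30 ng/ml, and 5.83% and 3.93% at 100 ng/ml. The counts of each list below are to be read beside these shares. Of 17 other homeostatic genes tested, 12 fell at 30 ng/ml, with a median of -0.34. They included *Vsir*, the checkpoint receptor VISTA (-0.41, FDR 0.00668), and *Cx3cr1*, the fractalkine receptor (FDR 0.0251). At 100 ng/ml 2 of the 17 fell and 1 rose. The gene that rose was *Gpr84*, a receptor for medium-chain fatty acids. It was placed in this list although it is induced in activated microglia, so its rise is not one of a homeostatic marker. *Gpr84* was at 40.4 ± 4.43, 37.5 ± 5.32 and 57.1 ± 2.75 TPM in the 3 groups (0.51, FDR 0.00288, against unstimulated, and 0.64, FDR 0.00284, against 30 ng/ml).

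Of 10 microglial transcription factors, 5 fell at 30 ng/ml and 4 fell at 100 ng/ml. *Runx1*, a hematopoietic regulator, fell by 0.26 at both concentrations (FDR 0.00824 and 0.0054), and *Mef2c* fell by 0.44 and by 0.41 (FDR 0.00937 and 0.013). Of 17 other disease-associated genes, 4 fell at 30 ng/ml. At 100 ng/ml *Clec7a*, the β-glucan receptor dectin-1, rose (59.9 ± 8.59 to 103 ± 19.9 TPM, log2 fold change 0.85, FDR 0.000696), *Cadm1* fell (-0.21, FDR 0.00798), and the other 15 were not called. Of 10 other border macrophage genes tested, *Tgfbi*, a matrix protein induced by TGF-β, rose at 100 ng/ml (0.47, FDR 0.00159), and *Ccr1*, a chemokine receptor, fell by 1.28 at 100 ng/ml (FDR 0.00367) and by 0.96 at 30 ng/ml (FDR 0.0217) from a low level of 2.88 ± 1.19 TPM.

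Of 18 ligands and partners of microglial receptors, 1 rose and 5 fell at 30 ng/ml, and 3 rose and 1 fell at 100 ng/ml. Of all genes, 4.16% were called higher and 3.71% lower at 30 ng/ml (5.83% and 3.93% at 100 ng/ml). A count of 1 among 18 genes is close to these shares. *Cx3cl1*, the neuronal ligand of CX3CR1, rose at both concentrations from 23.8 ± 1.79 to 29.7 ± 1.95 and 30.3 ± 2.32 TPM (FDR 0.0123 and 0.00298). *Tgfbr2*, a receptor of TGF-β, fell from 78.9 ± 7.81 to 63.2 ± 4.24 and 63.9 ± 5.48 TPM (FDR 0.00894 and 0.0291). Some markers of other cells in the same libraries were called as well. The oligodendrocyte-lineage markers summed to 6642 to 9858 TPM unstimulated, 6670 to 8194 TPM at 30 ng/ml and 5940 to 7212 TPM at 100 ng/ml, and 3 of 12 fell at 100 ng/ml. Neuron markers summed to 292.9 to 367.8, 352.6 to 408.2 and 331.2 to 363.3 TPM. At 30 ng/ml 1 of the 15 was called lower and 2 higher, but 10 had values below 0, with a median of -0.48. *Tubb3*, 1 of the 2 called higher, went from 53.4 ± 8.12 to 76.9 ± 5.10 TPM and so weighed on the sum. At 100 ng/ml 11 of the 15 had values below 0, with a median of -0.18. The 7 fibroblast markers summed to 1835 to 2035, 1879 to 2362 and 1995 to 2489 TPM, with 2 higher at 100 ng/ml. Of 6 endothelial markers, *Pecam1*, *Cldn5* and *Tek* had means under 1 TPM and *Flt1* fell at both concentrations. The part of these shifts in the values of the 41 genes was not tested.

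The coefficient of variation of CPM within groups had a median of 12.99% over the 39 genes tested (4.27% to 24.5%), beside 7.54% over all 15360 genes, and *Axl*, *Lgals3* and *Sall1* were below that value. The genes were read in the same libraries and are not independent replicates of a change.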

How the data were processed

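Levels of transcripts were compared between 5 unstimulated cultures, 5 with 30 ng/ml and 5 with 100 ng/ml IL-12. According to the study's methods and the submitters' processing notes, the authors ran FastQC 0.10.0, aligned with STAR 2.7.8a to GRCm39 and counted with featureCounts. The deposited values are of another kind: they hold estimated counts and TPM of 121798 transcripts and look like the output of a pseudoaligner, whose name is not given in the sources used here. Estimated counts deposited by the authors were summed to 35142 genes with GENCODE release M39 (120537 transcripts matched, 99.0%) and rounded, and the deposited TPM were summed in the same way. RefSeq promoters were located in GRCm39 by their sequence.

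The 15360 genes that reached 1 CPM in 2 or more cultures were scaled with TMM and tested with edgeR 4.0.16 (quasi-likelihood, R 4.3.3, limma 3.58.1) in 1 fit of the 3 groups, with a Benjamini-Hochberg FDR under 0.05. Tables and figures were made with Python 3.11.15. Each culture had 25746096 to 38435850 reads, and TMM factors were 0.981 to 1.02. Replicates of a group differed by more than sampling noise (chi-square per degree of freedom of at least 5.35). The alternatives were DESeq2 1.42.0, a likelihood-ratio test, 3 other scalings, 2 other filters, fewer groups, a replicate block, the study's thresholds and leaving out each culture.

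The 41 genes, their classes and the other lists were chosen with earlier results of these data known. Values are given for the genes called in any of the 4 comparisons and the 2 with the highest mean TPM in each class, values for each culture for the 2 called genes with the lowest FDR and the gene with the highest TPM in each class, and, of other lists, mainly the 2 called genes with the lowest FDR. *Cd52*, *Cx3cr1* and the uncalled genes named with values were added after their values were seen.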

Additional observations from a re-analysis of the deposited data

Results flagged for a closer look

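In each of the 3 groups of 5 cultures, the highest and lowest CPM of each of the 39 genes was set against the others with Dixon's criterion (critical value 0.71), and 2 of 117 group and gene combinations passed. Chance alone flags about 1 in 20. *Sall1* was at 28.29 CPM in replicate 3 at 30 ng/ml, below 32.92 to 34.25 CPM in the other 4. *Fcgr3* was at 123.8 CPM in replicate 4 at 100 ng/ml, above 96.17 to 102.7 CPM in the other 4.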

How the results depend on the processing

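For 100 ng/ml against unstimulated, 8 members and 1500 genes were called. The numbers were 330 genes relative to the core lineage genes, with 4 members outside that class in place of 7, 946 genes with only the groups compared, and 308 genes and 2 members with the study's thresholds (unadjusted p of at most 0.01 and log2 fold change of at least 0.5). For 30 ng/ml, 19 members and 1209 genes were called, against 11434 genes on the relative scale, and 243 genes and 6 members with the study's thresholds. For 100 against 30 ng/ml (3 members, 89 genes), DESeq2 called 247 genes and 5 members, the likelihood-ratio test 253 genes and 5 members, and the relative scale 6 genes and 0 members outside the core class in place of 2. For the mean of both concentrations (15 members, 1832 genes), the numbers were 6504 genes on the relative scale, and 235 genes and 4 members with the study's thresholds. The cause of these shifts was not tested, apart from the fewer cultures or stricter thresholds by construction.

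Leaving out each culture gave 5 to 9 members and 940 to 2932 genes at 100 ng/ml, 11 to 23 members and 673 to 1668 genes at 30 ng/ml, 0 to 4 members and 38 to 147 genes between the concentrations, and 9 to 21 members and 1203 to 2837 genes for the mean of both. The member counts moved by over 1.5 times without unstimulated replicate 3 (5, 11 and 9 members at 100 ng/ml, 30 ng/ml and for the mean), without replicate 1 or 5 at 30 ng/ml (11 and 12 members at 30 ng/ml), and between the concentrations without replicate 1, 4 or 5 at 100 ng/ml or 1 or 2 at 30 ng/ml (1 member each) or 5 at 30 ng/ml (0).

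The relative scale moved the median of all genes by 0.395 at 30 ng/ml and 0.264 for the mean of both concentrations, and by this shift the sign turned at 30 ng/ml for *Hpgds* (0.05), *Spp1* (0.26), *Lpl* (0.13), *Lgals3* (0.34), *Fcgr1* (0.23), *Ms4a7* (0.27) and *Lyz2* (0.26), and for the mean of both concentrations for *Tmem119* (0.23) and *Fcgr1* (0.22), in each case with 1 of the values called. Over all members and settings 3350 values kept their direction and side of the threshold, 133 lost and 77 gained a call, 9 turned, all on the relative scale, and 76 changed sign with neither value called.

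Deviations of same-numbered cultures had correlations of -0.183 to 0.264 over 15 pairs, with 4 over 0.1. For the 60 pairs with different numbers they were -0.239 to 0.311, with 10 over 0.1. The labels do not say whether equal numbers mark a shared preparation, and these weak correlations cannot settle it. With a replicate block 9, 18, 4 and 16 members were called in the 4 comparisons, and 1169, 1081, 69 and 1601 genes. Depth limits *Siglech* and *Cd163*, at 0 to 8 reads. Reads shared between *Itgam* and *Gm49368* or between related Fc receptors cannot be assigned from these files.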
